A study of Mus musculus with 8 samples.

Results

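Ubiquitin-specific proteases (USPs) are the largest family of deubiquitinases, enzymes that cut ubiquitin off other proteins. Here they are the 49 genes, of 16640 in the authors' deposited table, whose symbol begins with Usp and a digit. Usp2, a clock-regulated member, was left out by that rule. The symbol also brought in Usp6nl, whose protein switches off Rab GTPases and is no deubiquitinase, so 48 of the 49 are USP family genes. The livers came from mice aged 1 year that were kept on a chow diet. There were 4 WT livers and 4 livers with a liver-specific Huwe1 KO, and whole-tissue RNA was sequenced. The labels do not name the promoter that drives the deletion, the exons removed, the strain or the sex. The table holds 1 normalized value for each gene and genotype, so the spread among the 4 livers of a group cannot be shown gene by gene. The WT and KO values appear drawn toward each other, at least where reads are few, so they need not be the observed group means. Values per liver were not analysed here.

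Ubiquitin is a small protein that is attached to other proteins singly or in chains, and many chains send their target to the proteasome. Ligases such as HUWE1 attach it. USPs carry a cysteine in their active site and remove it, which can spare a protein from degradation, change its activity or return ubiquitin to the free pool. Several USPs act on proteins that HUWE1 also ubiquitinates, among them MYC, MCL1 and p53.

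Huwe1 RNA was lower in the KO livers. In the authors' deposited table it stood at 2666 normalized reads in WT and 1784 in KO, so 66.9% of the WT value was left (adjusted p = 0.000425). The log2 fold change was -0.58, and the standard error that its p implies was 0.13. Whether the counted reads lie inside the deleted part is not known, so this value is a limited check of the labels. The 6 hepatocyte markers looked at had deposited mean values of 22244 or more, and 1 of them was called higher. Neutrophil markers were the list that moved most among those of other cell types, with 2 of 5 called higher and a summed deposited value of 73.4 in WT and 159.7 in KO. The 2 called were S100a9 (25.6 and 79.1) and Retnlg (3.78 and 11.3), and S100a8 and Cxcr2 were higher without passing. Ly6g went the other way (7.52 and 5.02, deposited adjusted p = 0.628), so the 5 did not move together. Of the other 6 marker lists (Kupffer, T and NK, B, stellate, endothelial and cholangiocyte), none had a called gene. Over all listed genes, 9.97% were called. Implied standard errors in these lists reached 0.56 (Marco), so a list without a call was not shown to be unchanged. The cholangiocyte sum went from 900.4 in WT to 1620.1 in KO in the deposited table. Most of that sum was Spp1 (722 and 1410.3, adjusted p = 0.174), and the other 4 cholangiocyte markers summed to 178 and 209.8. The part of these markers in the USP values was not tested. In whole liver, fewer cells of a type and less RNA per cell cannot be told apart.

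Across these 49 genes, with Usp2 left out, RNA levels differed little between the genotypes. By the authors' deposited adjusted p under 0.05, 1 USP gene was higher in KO (Usp42), 1 was lower (Usp5) and 47 did not pass. That is 4.08% of the members, where 9.97% of all listed genes were called, 734 higher (4.41%) and 925 lower (5.56%). With fold changes centred on the most abundant eighth of genes, whose median was -0.08, that split became 1168 higher and 625 lower, and the USP calls became Usp42 and Usp36, both higher. At an unadjusted p under 0.05 there were 7 USP genes, 5 higher and 2 lower, where the share of all genes was 20.5%. The median deposited log2 fold change of the 49 was 0.09, against 0.02 for all genes, and 33 were above 0. Of the 42 members with a mean value of 10 or more, 29 were above 0 (69.0%), against 51.3% of all genes past the same minimum. Across the table, fold change went with deposited length and against level (Spearman's rho 0.14 and -0.20 over 12309 genes that share the same 8 libraries). USP genes were long by this measure, with a median of 4432 bases against 2732 for all genes. The deposited length is not the span on the chromosome. For Usp42 it is 5151 bases, where the gene runs from 143710325 to 143759753 in GRCm38. Once the median of genes of like length and level was subtracted, the members' median was 0.04 and 0 of them passed.

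**Figure D1:**
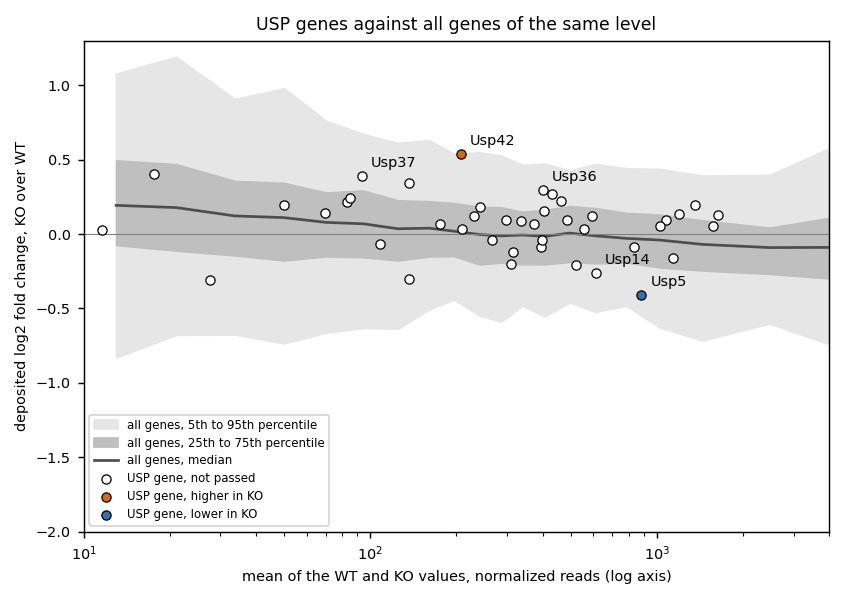
Deposited log2 fold change (KO over WT) against the mean of the WT and KO values (normalized reads, log axis) for 42 USP genes with a mean value of 10 or more, over the spread of all genes in 20 classes of level. Of the 42 points, 27 lie in the dark band that holds the middle of all genes of the same level, and all 42 in the pale band from the 5th to the 95th percentile, by the limits of their own class (Usp27x, at the far left, is plotted beyond the centre of the lowest class).

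Usp42 was the gene called higher among the 49. Its enzyme removes ubiquitin from p53 and from histone H2B. The gene (Entrez ID 76800) lies on chromosome 5, from 143710325 to 143759753 in GRCm38. In the authors' deposited table it stood at 169 normalized reads in WT and 245 in KO, a 1.45-fold higher level. On the log2 scale this deposited difference was 0.54 (implied standard error 0.16, 95% interval 0.22 to 0.86, adjusted p = 0.0149). Less the median of genes of like length and level it was 0.45 and no longer passed (adjusted p = 0.0568).

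Usp5 was the gene called lower among the 49. Its product, also known as isopeptidase T, takes apart free polyubiquitin chains that are attached to no protein, and so refills the pool of single ubiquitin. The gene (Entrez ID 22225) lies on chromosome 6, from 124815019 to 124829484 in GRCm38. The deposited values were 1009 in WT and 758 in KO, which is 75.2% of WT. On the log2 scale this deposited difference was -0.41 (implied standard error 0.14, 95% interval -0.69 to -0.13, adjusted p = 0.0413). The difference was -0.33 with centring on the most abundant eighth of genes and -0.34 after correction for length and level, and neither passed (adjusted p = 0.128 and 0.127).

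Usp14, the USP that sits on the proteasome and trims chains from proteins about to be degraded, came next by p. Its deposited values were 669 in WT and 558 in KO (log2 fold change -0.26, standard error 0.10, adjusted p = 0.0709), so it did not pass. The proteasome carries a pair of further deubiquitinases from other families, and both had fold changes of the same sign. Psmd14, the metalloprotease of the proteasome lid, fell from a deposited 709.9 in WT to 548 in KO (log2 fold change -0.37, adjusted p = 0.026). Uchl5, with 266 and 231 in the deposited table, did not pass (adjusted p = 0.556). Psmd2, the proteasome base subunit to which USP14 binds, fell from a deposited 2242 to 1822 (log2 fold change -0.30, adjusted p = 0.0103). With centring on the most abundant eighth, Psmd14 was at -0.29 and Psmd2 at -0.22 on the log2 scale, and neither passed (adjusted p = 0.109 and 0.0925). After correction for length and level they were at -0.28 and -0.18 (adjusted p = 0.145 and 0.229).

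Of the 7 members listed for MYC, MCL1 or p53, 0 passed, where 9.97% of all listed genes were called. Here and in the roles below, the sets are too small for a count of calls to say anything about a role. Usp42, which also acts on p53 and did pass, was listed with the chromatin enzymes. The list was chosen by hand and is not complete, so further members placed in other roles may act on these proteins too. The 7 had a median deposited log2 fold change of 0.13, and the 6 with a mean value of 10 or more lay between 0.06 and 0.39. Usp36, a nucleolar enzyme that stabilizes MYC, had deposited values of 359 in WT and 441 in KO (log2 fold change 0.30, standard error 0.12, adjusted p = 0.0939). It passed only with centring on the most abundant eighth of genes among the settings that kept the threshold of 0.05 (log2 fold change 0.38, adjusted p = 0.0187). Of the other MYC deubiquitinases in this list, Usp37 had deposited values of 80.9 in WT and 106 in KO (adjusted p = 0.151). Usp28 had 120.5 in WT and 153 in KO (adjusted p = 0.366). Usp7, which acts on p53 and on its ligase MDM2, was at 1010.1 in WT and 1049 in KO in the deposited table. Its 95% interval ran from -0.15 to 0.26 on the log2 scale. Usp9x, which protects MCL1, was at 1539.8 and 1603 in the deposited table, with an interval of -0.14 to 0.25. Usp10, which acts on p53 and works with the stress granule protein G3BP1, was at 1556 and 1704 in the deposited table, with an interval of -0.09 to 0.35. Those 3 intervals leave no room for a 1.5-fold change either way, as far as the implied errors are right.

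**Figure D2:**
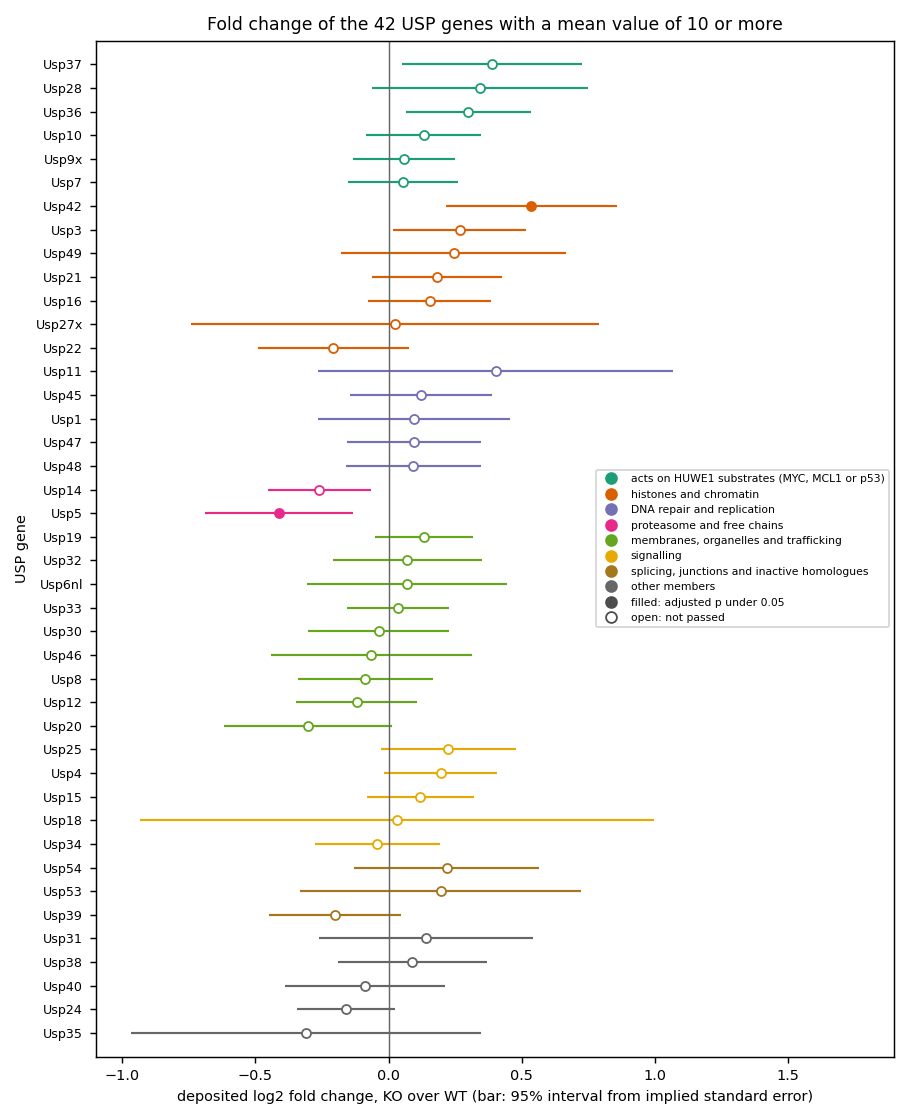
Deposited log2 fold change (KO over WT) of the 42 USP genes with a mean value of 10 or more, coloured by role. Bars are 95% intervals from the implied standard error, filled points passed an adjusted p of 0.05 (Usp42 and Usp5), and 31 of the 42 bars lie within a 1.5-fold change in either direction.

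Of the 9 members listed for histones and chromatin, Usp42 rose and 8 did not pass (11.1% called, against 9.97% of all listed genes). Usp22, which removes ubiquitin from histone H2B as part of the SAGA coactivator, had deposited values of 558 in WT and 483 in KO (log2 fold change -0.21, standard error 0.14, adjusted p = 0.476). None of the 5 genes listed for its SAGA module passed in the deposited DESeq2 result, and 1 had an unadjusted p under 0.05. That gene was Atxn7l3, the subunit needed for USP22 activity, at 527 and 632 (adjusted p = 0.079). Usp3, an H2A enzyme, was at 391 and 471 in the deposited table (log2 fold change 0.27, adjusted p = 0.198). Usp16, also an H2A enzyme, was at 382 and 425 in the deposited table, and Usp21 at 226 and 257, with adjusted p of 0.54 and 0.463. Usp49, an H2B enzyme, had 78.1 and 92.5 in the deposited table, and Usp27x 11.5 and 11.7, with adjusted p of 0.63 and 0.998.

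Members that work on membranes and organelles had a median deposited log2 fold change of -0.04, and 0 of 9 passed, where 9.97% of all listed genes did. Usp8, which sorts receptors at endosomes, was at 861 in WT and 809.8 in KO in the authors' deposited table. Usp19, anchored in the endoplasmic reticulum, was at 1142 and 1253 in the deposited table, and Usp30, which opposes mitophagy on the outer mitochondrial membrane, at 269.8 and 263. Usp20, known to stabilize HMG-CoA reductase, the rate-limiting enzyme of cholesterol synthesis, was at 151 and 122 in the deposited table. Its log2 fold change was -0.30 (95% interval -0.62 to 0.01, adjusted p = 0.277), so the interval still holds a 1.5-fold fall. Usp33, a relative of Usp20 that also recycles receptors, was at 551 and 565 in the deposited table, Usp32 at 365 and 383, and Usp6nl at 170.5 and 179. Usp12 and Usp46, which share the activator WDR48 with USP1, had deposited log2 fold changes of -0.12 and -0.06, and Wdr48 itself had -0.14 (adjusted p = 0.625).

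The signalling members also did not pass, 0 of 5 against 9.97% of all listed genes, with a median deposited log2 fold change of 0.12. Usp4 and Usp15, both known from TGF-beta receptor signalling, were at 1268 and 571 in WT and at 1452 and 621 in KO in the authors' deposited table. Usp25, an enzyme of TRAF signalling, went from 428 to 499.6 (adjusted p = 0.334), and Usp34, known from Wnt signalling, from 403 to 392 in the deposited table. Usp18 removes the ubiquitin-like protein ISG15 and is induced by interferon. It stood at 207 in WT and 211 in KO in the deposited table, but its implied standard error was 0.49, against a median of 0.15 for all genes with a mean value from 100 to 1000. Its interval ran from -0.93 to 1.00, so a change of close to 2-fold either way lies inside it. Isg15 was at 197 and 216 in the deposited table, with a standard error of 0.35.

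The 5 members of DNA repair and replication had deposited log2 fold changes between 0.09 and 0.40, and 0 passed, where 9.97% of all listed genes did. Usp1, which acts on FANCD2 and PCNA, was at 287 and 307 in the authors' deposited table, Usp47 at 1038 and 1108, Usp48 at 469 and 500.4, and Usp45 at 220.1 and 239. Usp11 had the highest of these fold changes but only 15.2 and 20.03 normalized reads in WT and KO in the deposited table (adjusted p = 0.604). Usp39, a splicing factor without a working active site, was at 331 and 288 in the deposited table (adjusted p = 0.399), and Usp53 of tight junctions and Usp54 had log2 fold changes of 0.20 and 0.22. The members outside these roles that had a mean value of 10 or more (Usp24, Usp31, Usp35, Usp38 and Usp40) had deposited log2 fold changes between -0.31 and 0.14.

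Levels within the family spanned several orders of magnitude. Divided by the deposited length, Usp10 ranked first of the 49, with 415 normalized reads per kilobase in WT and 455 in KO. It was followed by Usp4 (347 and 397), Usp5 (318 and 239), Usp19 (242 and 265) and Usp8 (206 and 194). With 4 livers behind each value and no spread per group, neighbours in this order cannot be told apart. At the other end were 7 members with a mean value under 10. Summed over the 8 livers, the deposited values amount to 6.03 normalized reads for Usp13, 3.95 for Usp44, 1.02 for Usp29 and 1.01 for Usp51, too few for a fold change. Usp43 had deposited values of 2.42 and 5.21, Usp50 of 2.24 and 3.75, and Usp17la of 3.45 and 3.29. None of these 3 passed, with standard errors between 0.54 and 0.56 in log2 units. Usp17la belongs to a cluster of near-identical copies on chromosome 7, so its reads are uncertain.

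**Figure D3:**
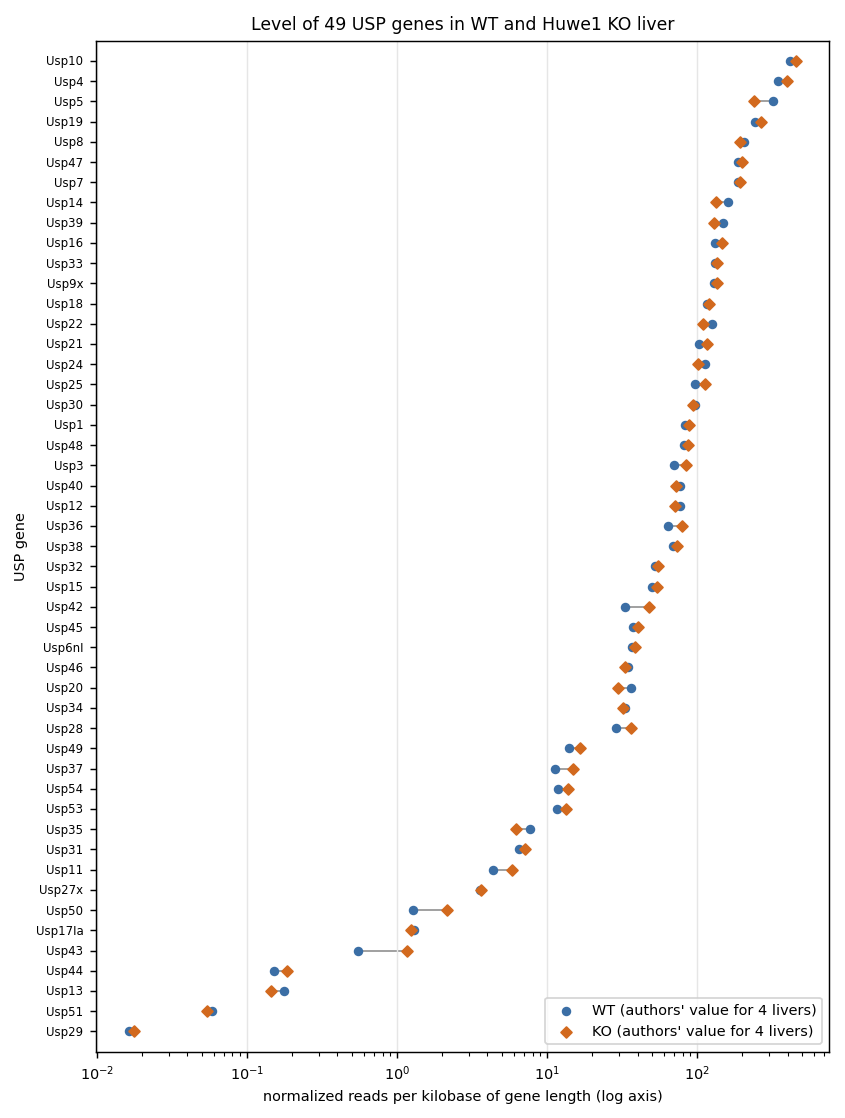
Normalized reads per kilobase of deposited length (log axis) of all 49 USP genes in WT (circles) and KO (diamonds), 1 authors' value per genotype. Usp10 is highest, 42 genes lie at 3.5 or more in both groups, and Usp44, Usp13, Usp51 and Usp29 lie below 0.2.

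Many USPs come in sets of close paralogues, and in liver 1 gene usually supplied most of a set's RNA. Usp5 made up 99.9% of the summed level per kilobase of Usp5 and Usp13, taken as the mean of both genotypes. Usp22 made up 97.0% of the set with Usp27x and Usp51, and Usp4 made up 86.7% of the set with Usp15 (12.1%) and Usp11 (1.18%). Usp37 and Usp49 likewise made up 99.9% and 98.9% of their pairs with Usp29 and Usp44. The shares were closer for Usp36 and Usp42, at 64.0% and 36.0%, and for Usp54 and Usp53, at 50.6% and 49.4%. Thus the gene called lower, Usp5, had next to no paralogue RNA beside it, while the gene called higher, Usp42, had more RNA of its paralogue Usp36 beside it. Usp36 and Usp42 both had deposited fold changes above 0, and the difference between them was not tested.

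**Figure D4:**
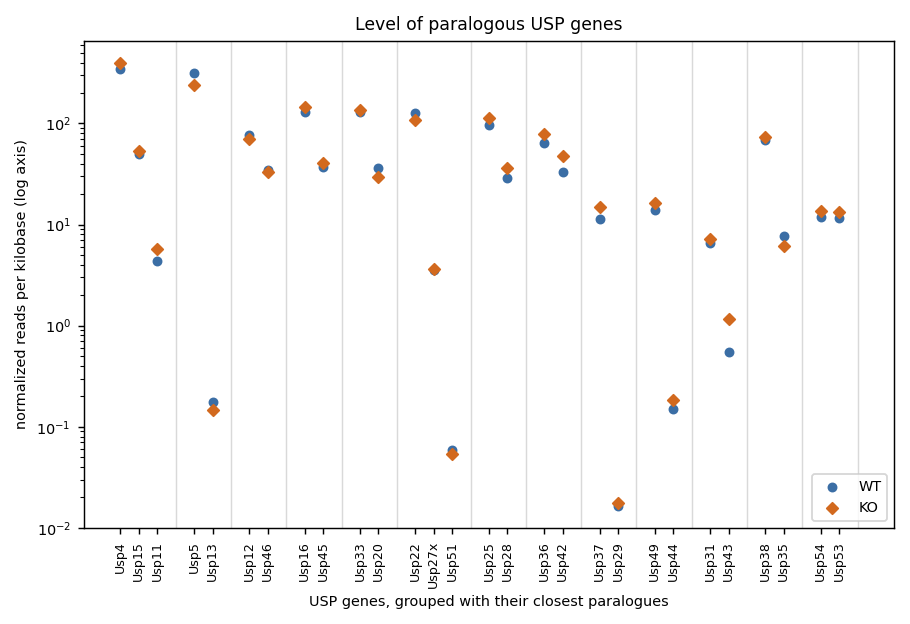
Normalized reads per kilobase (log axis) in WT (circles) and KO (diamonds) for 28 USP genes in 13 sets of paralogues, each set ordered by level. In the set of Usp5 and Usp13 nearly all reads belong to Usp5, while Usp54 and Usp53 lie side by side.

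The members are spread over 16 chromosomes. The nearest neighbours are Usp8 and Usp50 on chromosome 2, 1.74 kb apart, and Usp4 and Usp19 on chromosome 9, 98.1 kb apart, in RefSeq for GRCm38. Usp8 and Usp50 were far apart in level per kilobase (rank 5 and rank 43 of the 49), and Usp4 and Usp19 were both near the top. By the annotation in the deposited table, 43 of the 49 carry a deubiquitinase term, out of 79 such genes in all. The 6 others were Usp6nl, with a Rab GTPase term, and Usp10, Usp14, Usp17la, Usp27x and Usp53, which carry no molecular function term there.

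RefSeq promoters for GRCm38 were at hand for 37 members. Those of Usp5, Usp42 and Usp14 were among the ones missing from the set used here. For each gene 1 start was used, the first by position along the chromosome. It can lie inside the gene, as for Usp7, Usp37 and Usp54, all on the minus strand. On that strand the first by position is the most downstream start at hand, so the strands were not treated alike. In the 250 bases before the start used, the members had a median of 24 CpG dinucleotides, against 13 over 13190 listed genes. At a mean value of 10 or more the medians were 24.5 for 32 members and 15 for all such genes. The 5 with a mean value under 10 had a median of 5, against 6 for all such low genes. The E-box CACGTG, which MYC can bind and which reads the same on both strands, occurred in 4 of the 37 (Usp4, Usp16, Usp31 and Usp6nl; 10.8%) and in 7.58% of all 13190. These are letter counts and show no binding. To show the range, 3 promoters are given, 5′ to 3′ on the strand of the gene, with each CG in capitals. They were taken from the 12 USP promoters whose start is the outer end of the RefSeq gene, as the one with most CpGs (Usp46, 33; chr5:74068412-74068661, minus strand), the most abundant gene (Usp10, 6; chr8:119910110-119910359, plus strand) and the one with fewest (Usp17la, 1; chr7:104856766-104857015, plus strand).
Usp46: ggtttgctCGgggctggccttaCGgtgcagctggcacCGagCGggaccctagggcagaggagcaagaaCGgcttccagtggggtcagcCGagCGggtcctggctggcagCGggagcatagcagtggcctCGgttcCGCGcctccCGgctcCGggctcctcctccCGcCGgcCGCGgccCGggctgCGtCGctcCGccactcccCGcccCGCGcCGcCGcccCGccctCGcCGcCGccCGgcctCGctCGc
Usp10: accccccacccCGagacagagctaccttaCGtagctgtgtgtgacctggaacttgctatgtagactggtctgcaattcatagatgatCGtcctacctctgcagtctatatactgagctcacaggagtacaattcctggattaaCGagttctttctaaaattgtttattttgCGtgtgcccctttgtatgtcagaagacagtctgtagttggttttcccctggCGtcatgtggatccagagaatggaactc
Usp17la: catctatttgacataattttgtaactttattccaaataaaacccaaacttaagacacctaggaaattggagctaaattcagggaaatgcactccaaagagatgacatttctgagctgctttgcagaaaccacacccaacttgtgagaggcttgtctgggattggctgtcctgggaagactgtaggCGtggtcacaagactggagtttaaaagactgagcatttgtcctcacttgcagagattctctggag
Usp10, which ranked first of the 49 per kilobase, has few CpGs before this RefSeq start. Usp46, whose level was 12.9 times lower, has many. These are single picked cases. Over the members, the median was 24.5 CpGs at a mean value of 10 or more and 5 below it. Whether these starts are the ones used in liver was not tested.

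Genes of other deubiquitinase families, outside the symbol rule, were taken from a list. It includes 3 that carry a USP domain under another symbol (Cyld, Uspl1 and Pan2). The list goes by family, and not all of its genes carry a deubiquitinase term in the deposited annotation. A listed gene thus need not encode an active deubiquitinase. Of 43 listed genes, all found, 2 were lower and 0 higher by the authors' deposited adjusted p, and 41 did not pass. With centring on the most abundant eighth, 3 were higher (Otud5, Pan2 and Otud4) and 1 was lower (Uchl3). The deposited calls made up 4.65% of the list, against 9.97% of all listed genes, and the list's median log2 fold change was 0.06. Uchl3, which frees ubiquitin and NEDD8 from small adducts, fell from 261 to 142 in the deposited table (log2 fold change -0.88, standard error 0.15, adjusted p = 1.65e-07), and Psmd14 was the other. Uchl3 passed under every alternative tried. The most abundant of the rest, Prpf8 (a spliceosome protein) and Eif3h (a translation factor), had deposited log2 fold changes of -0.02 and 0.06. The 16 listed genes of the OTU family had a median of 0.14, and none passed in the deposited DESeq2 result. Of these, 6 had an unadjusted p under 0.05 (5 higher and 1 lower), where 20.5% of all genes had such a p. Ubb, a gene for polyubiquitin, had deposited values of 11395 in WT and 14754 in KO and did not pass (adjusted p = 0.0687). It passed as higher after correction for length and level (adjusted p = 0.0227) and with centring on the most abundant eighth (adjusted p = 0.0164). Rps27a, which makes ubiquitin fused to a ribosomal protein, also did not pass (deposited values 2159.6 and 2418, log2 fold change 0.16, adjusted p = 0.566). Of the 15 partner genes of USP enzymes, Psmd2 alone was called (6.67%, where 9.97% of all listed genes were called). The USP10 partners G3bp1 and G3bp2 had deposited log2 fold changes of 0.12 and -0.39 (adjusted p = 0.548 and 0.0853).

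**Figure D5:**
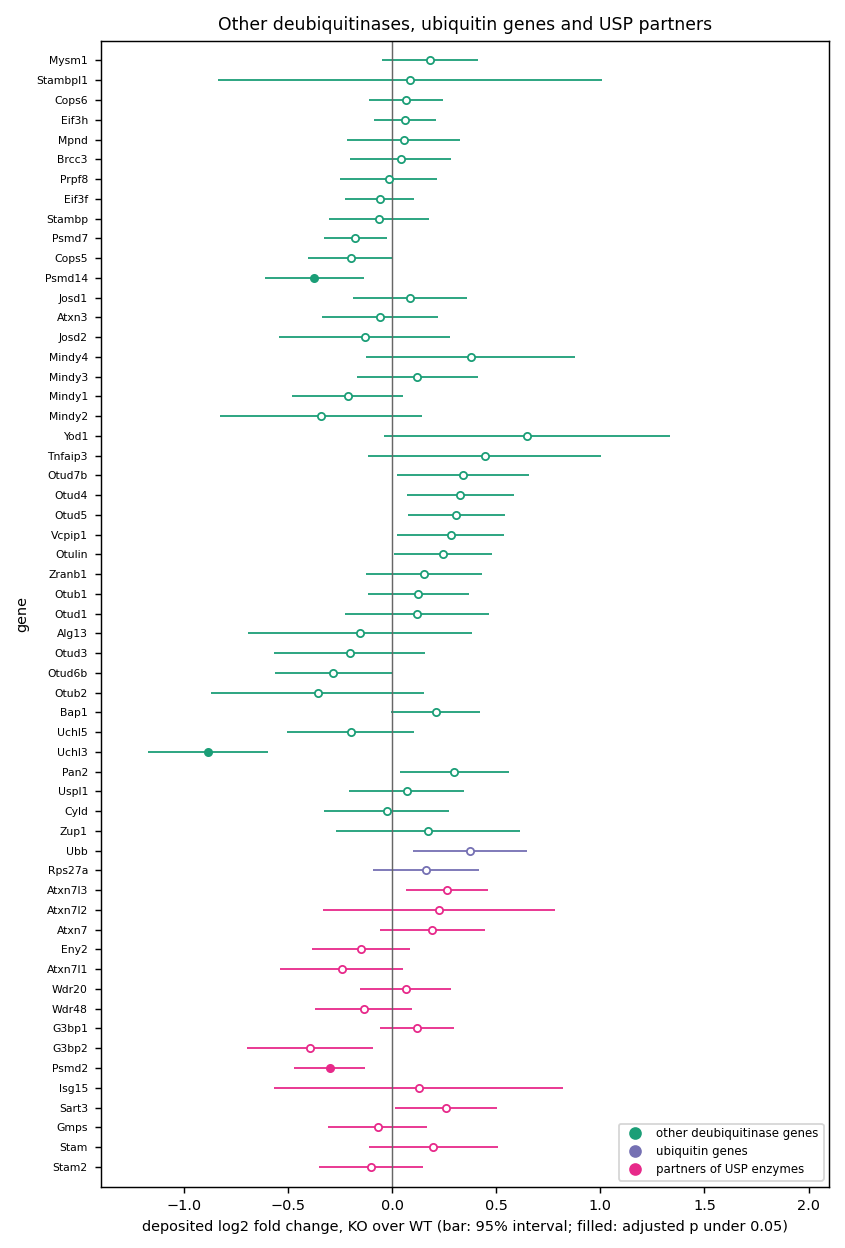
Deposited log2 fold change (KO over WT) with 95% intervals for genes with a mean value of 10 or more. These are genes of other deubiquitinase families, the ubiquitin genes Ubb and Rps27a and 15 partners of USP enzymes. Filled points passed an adjusted p of 0.05, and they are Uchl3, Psmd14 and Psmd2, all lower in KO.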

How the data were processed

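RNA of 8 livers was sequenced, per the labels' protocols. The submitters' processing notes name mm10 and DESeq2. Aligner, read counting and strand: not given in the sources used here. For each gene and group the authors deposited a depth-normalized signal (about 17347900 normalized reads in WT and 17533100 in KO, summed over genes), which was not divided by gene length. The deposited log2 fold changes equal the log2 ratio of these values. The deposited adjusted p-value is that of Benjamini and Hochberg over the 16640 genes, to within 1.74e-06. Genes with 1 read in all have fold changes of 0.11 to 0.12 in size, so the fold changes appear shrunken and those of low genes are understated. Such a read can lie in only 1 group, yet Usp29, with about 1 read in all, had deposited values of 0.12 in WT and 0.13 in KO. The WT and KO values thus appear to carry the same shrinkage and need not be the observed group means, at least where reads are few.

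A count or limma model per liver, planned first, could not be fitted to group values, so the authors' calls were used, at an adjusted p under 0.05. Standard errors are the size of the log2 fold change over the normal score of the unadjusted p, which assumes a Wald test, and with shrunken fold changes they and the 95% intervals are too narrow where reads are few. The p-values measure the spread among these 8 livers, and nothing says how these were collected. Every row meeting the symbol rule was accounted for. Members that passed, had 1.3-fold changes or were most abundant, and members with a role listed, were named. The members and lists were chosen with earlier results of these data known. Symbols were matched directly, and 1 list gene through its Entrez ID in RefSeq (GRCm38.p6). Some listed genes are not reported here and were left out of the list counts. The arithmetic of the recentred p-values was tried on fold changes simulated from the implied standard errors. That simulation takes those errors as right, so it cannot test the Wald assumption or the shrinkage. Software was scipy 1.17.1, numpy 2.4.6 and pandas 2.3.3 under Python 3.11.15, with plots by matplotlib 3.10.9.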

Additional observations from a re-analysis of the deposited data

How the results depend on the processing

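The number of USP genes called was 2 with a mean value of 10 or more required, with centring on the median of those genes and without Usp6nl. It was 0 at an adjusted p under 0.01, with the Benjamini-Yekutieli adjustment and with the length and level trend removed, 4 at 0.1 (Usp14 and Usp36 added) and 7 at an unadjusted p under 0.05, a setting chosen after seeing the data. From the other deubiquitinase families, 1 gene was called at 0.01, 1 with Benjamini-Yekutieli and 1 without the trend. The number was 4 both at 0.1 and with centring on the most abundant eighth. For the ubiquitin genes Ubb and Rps27a with the partner genes, 1 was called (Psmd2), against 0 at 0.01, 0 with Benjamini-Yekutieli, 4 at 0.1, 2 with centring on the most abundant eighth (Atxn7l3 and Ubb) and 1 without the trend (Ubb). All genes called numbered 1659 in the deposited result, 975 at 0.01, 2225 at 0.1 (13.4%), 800 with Benjamini-Yekutieli and 1544 without the trend. The members' median log2 fold change stayed above 0 in each setting, between 0.04 and 0.17, and Huwe1 was lower and passed in all 7 alternatives. Members that did not pass changed sign with centring on the most abundant eighth, to 0.016 for Usp17la, 0.044 for Usp30, 0.040 for Usp34 and 0.017 for Usp46. Without the trend the log2 fold change became -0.19 for Usp27x, 0 for Usp30, -0.038 for Usp32, -0.015 for Usp48, -0.016 for Usp6nl and -0.00068 for Usp7. No paired analysis was possible because the deposited columns hold 1 value per group, and for the same reason leaving out livers and other count models were not run. Depth limits the 7 members with a mean value under 10.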
